A study of Mus musculus with 39 samples.

Results

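Ribosome biogenesis genes encode the proteins that make ribosomes, as distinct from the proteins of the finished ribosome. A list of 39 such genes was followed in a mouse model of acute myeloid leukaemia, and 36 of the 39 were measured by a probe set assigned to that gene alone, among 22180 genes measured in this way. The 36 genes fall into 6 groups by role: 3 of RNA polymerase I, 4 nucleolar scaffold and chaperone genes, 3 of box C/D small nucleolar ribonucleoproteins, 3 of box H/ACA ribonucleoproteins, 10 of small subunit assembly and 13 of large subunit assembly. The genes Fbl, Mrto4 and Tsr1 were read only by probe sets that also name another gene, and they were left out of every count of expression values. The promoter counts cover all listed genes with a window, Tsr1 and Mrto4 among them.

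The study asked how miR-126, a microRNA of blood stem and progenitor cells, bears on leukaemia caused by AE9a, a shortened splice variant of AML1-ETO, a fusion protein found in acute myeloid leukaemia. Donor cells carrying the CD45.1 surface marker were sorted from the bone marrow of transplanted mice with end-stage disease, and their RNA was hybridised to Affymetrix mouse gene arrays. There were 13 groups of 3 mice each, 39 arrays in all: leukaemia with AE9a alone, leukaemia with AE9a and added miR-126 (AE9a+miR-126), leukaemia with AE9a in cells lacking miR-126 (miR-126KO+AE9a), each at serial transplant passages 1 to 4 (P1 to P4), and a normal control group that belonged to the first passage. The sources used here do not give the strain and age of the mice, the vectors and promoters, or what the donor cells of the normal control carried. The normal controls came from the first passage only, so later passages had no normal controls of their own, and the labels do not say whether the mice of a passage received cells of 1 or of several donors. The p-values measure the spread between mice within groups, pooled per gene over all 13 groups. The spread of every group therefore enters the p-values of each comparison.

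Ribosomal RNA is transcribed in the nucleolus by RNA polymerase I, and the transcript is cut, chemically modified and folded onto ribosomal proteins by a large set of assembly factors before the subunits are exported. Small nucleolar ribonucleoproteins guide the modifications, with box C/D particles directing methylation and box H/ACA particles directing pseudouridylation. Many genes of this pathway are targets of the transcription factor MYC, and their levels are commonly high in dividing and leukaemic cells.

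The promoter windows of 4 members are printed because these genes moved most or carry the motif that MYC and its partners bind. Each window holds 250 bases before and 50 bases after the start of the gene, from RefSeq on GRCm38.p6, and capitals mark matches to CACGTG, to CACGCG or its reverse complement CGCGTG, and to CCGGAAGT or its reverse complement ACTTCCGG. Ppan and Heatr1, which differed most and in opposite directions between leukaemias with and without added miR-126, both carry CCGGAAGT near the start, whereas Pes1 and Wdr43 carry CACGTG.
Ppan, chr9:20887925-20888224, plus strand: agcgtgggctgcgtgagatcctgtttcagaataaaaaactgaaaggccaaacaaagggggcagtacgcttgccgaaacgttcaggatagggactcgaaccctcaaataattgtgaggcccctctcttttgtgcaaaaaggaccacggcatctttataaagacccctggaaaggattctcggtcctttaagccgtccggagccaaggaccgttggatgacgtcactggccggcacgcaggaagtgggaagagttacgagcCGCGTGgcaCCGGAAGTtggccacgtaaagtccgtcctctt
Heatr1, chr13:12395125-12395424, plus strand: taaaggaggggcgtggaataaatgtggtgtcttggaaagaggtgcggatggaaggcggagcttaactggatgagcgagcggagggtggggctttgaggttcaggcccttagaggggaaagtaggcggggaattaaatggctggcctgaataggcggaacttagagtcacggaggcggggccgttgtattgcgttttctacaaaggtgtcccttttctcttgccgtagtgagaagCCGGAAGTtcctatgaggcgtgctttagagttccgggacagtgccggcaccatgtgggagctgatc
Pes1, chr11:3963725-3964024, plus strand: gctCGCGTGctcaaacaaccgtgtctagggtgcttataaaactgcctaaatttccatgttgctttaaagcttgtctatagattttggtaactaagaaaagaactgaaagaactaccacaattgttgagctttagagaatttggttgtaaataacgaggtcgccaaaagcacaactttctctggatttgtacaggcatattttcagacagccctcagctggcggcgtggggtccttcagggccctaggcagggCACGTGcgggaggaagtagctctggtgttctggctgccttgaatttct
Wdr43, chr17:71615965-71616264, plus strand: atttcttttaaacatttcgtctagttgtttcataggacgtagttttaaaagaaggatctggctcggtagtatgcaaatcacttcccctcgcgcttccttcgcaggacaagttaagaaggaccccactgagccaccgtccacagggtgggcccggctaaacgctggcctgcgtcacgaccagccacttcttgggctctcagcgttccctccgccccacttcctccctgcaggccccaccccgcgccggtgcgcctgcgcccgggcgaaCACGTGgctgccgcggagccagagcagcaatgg

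Windows were found for 34 of the 39 listed genes, and Bop1, Fbl, Npm1, Rrp12 and Rrs1 had none. CACGTG, the canonical E-box, lay in the windows of 4 members (Pes1, Tsr1, Utp20 and Wdr43), 11.8% of the 34, against 8.09% of 27025 genes with a window. The variant CACGCG was found in 12 members (35.3%) against 10.5% of genes, and CCGGAAGT, the letters bound by ETS factors, in 9 members (26.5%) against 4.31%. Both strands were searched and a window was counted once per motif; CACGTG reads the same on both strands and differs from CACGCG by 1 letter, and CCGGAAGT overlaps neither in sequence. The median GC content was 59.5% over the 38 windows of members and 52.7% over all 32851 windows, so windows of members and of all genes also differ in base composition.

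Levels are on a log2 scale, on which a difference of 1 is a doubling, and the median gene had a mean of 5.56 over all arrays. All 36 members had means above that median. The sorted cells expressed the leukocyte marker Ptprc at 9.31 to 11.7 on every array, whereas Lepr, a marker of marrow stroma, lay between 3.20 and 4.16, near the 5th percentile of gene means (3.27). Other stromal and endothelial markers were not that low: Vwf, Kdr, Cdh5 and Col1a1 had medians of 5.47, 5.49, 5.84 and 6.63, near or above the median gene. The SD over the probe sets of an array ran from 1.87 to 2.08 in normal controls, 1.86 to 2.06 with AE9a, 1.78 to 2.04 with miR-126KO+AE9a and 1.43 to 2.03 with AE9a+miR-126. It was below 1.8 on 8 arrays, of which 7 were AE9a+miR-126 arrays of P2 to P4 and 1 was a miR-126KO+AE9a array of P2. On an array of low SD bright and dim genes read closer to each other, and the members are among the brighter genes.

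**Figure D1:**
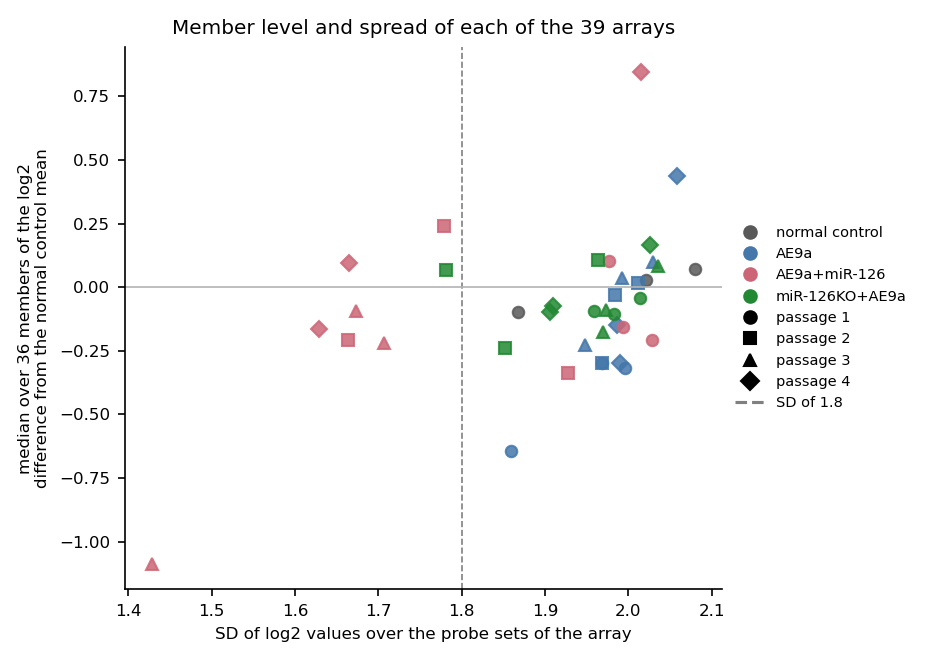
Each point is 1 of the 39 arrays, coloured by arm with its shape giving the passage. The horizontal axis is the SD of log2 values over its probe sets, the vertical axis the median over the 36 members of their log2 difference from the normal control mean, and the dashed line an SD of 1.8. The lowest point is AE9a+miR-126 P3 replicate 3, with an SD of 1.43 and a median difference of -1.09; the highest is AE9a+miR-126 P4 replicate 3, with an SD of 2.01 and a median difference of 0.85.

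The lowest group means of the members lay mostly in AE9a+miR-126 at P3 and AE9a at P1. For 17 of the 36 members the lowest of the 13 group means was AE9a+miR-126 P3, and for 13 it was AE9a P1, while AE9a+miR-126 P4 was the highest group for 16. The share of all genes with their lowest or highest mean in these groups is not given here. These counts are therefore not a result about the members alone. All 3 AE9a+miR-126 P3 arrays, and 2 of those at P4, had an SD below 1.8. Group means of a member spanned 0.40 to 2.20 log2 units, with a median span of 1.03. The SD within a group had a median of 0.24 over members and groups, and a median of 0.58 at AE9a+miR-126 P3 and 0.53 at AE9a+miR-126 P4. At P1 it was 0.20 in AE9a, 0.14 in AE9a+miR-126 and 0.12 in miR-126KO+AE9a. At AE9a+miR-126 P3 replicate 3, 34 of 36 members lay below the normal control mean. At AE9a+miR-126 P4 replicate 3, 1 of 36 did. The other P3 replicates had median member differences from normal of -0.09 and -0.22, and the other P4 replicates of 0.09 and -0.17, so that 1 array stood well below the others at P3 and 1 well above the others at P4.

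**Figure D2:**
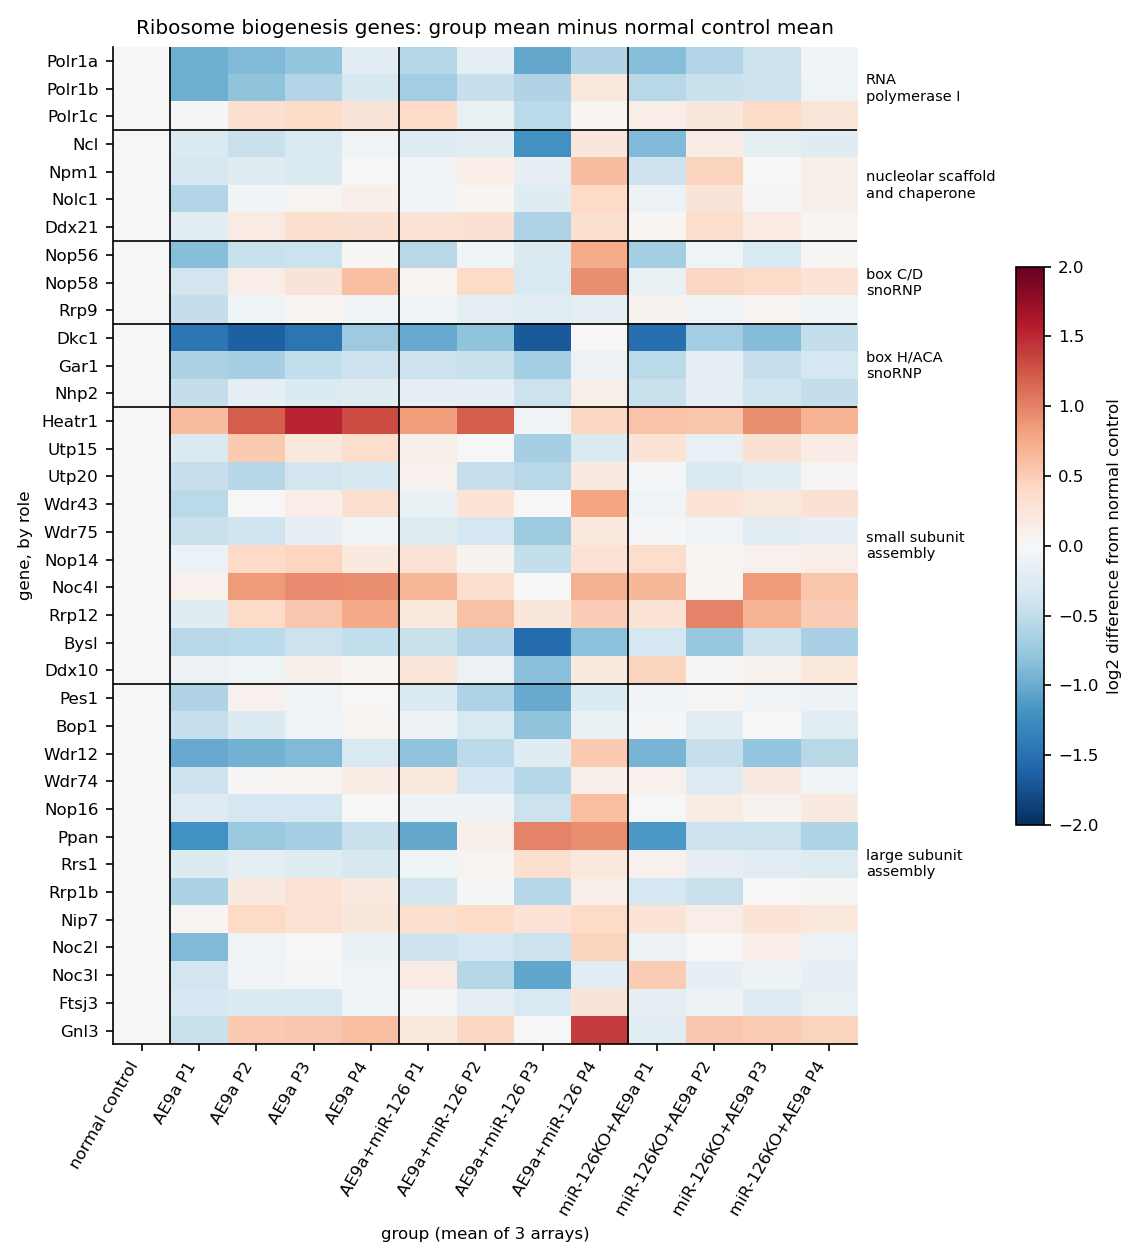
Rows are the 36 members ordered by role and columns the 13 groups; colour is the group mean minus the normal control mean (log2, blue lower, red higher). Most cells of the AE9a P1 column are blue, with a median member difference of -0.44, the Heatr1 row is red in most leukaemia groups, and the Ppan row turns from blue at P1 to red at P3 and P4 in AE9a+miR-126.

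The first comparison asked how AE9a leukaemia at P1 differed from normal control cells. Of the 36 members 6 fell and none rose by limma with Benjamini-Hochberg adjustment over all genes, where 8.87% of all genes changed (3.22% higher, 5.64% lower). The genes that fell were Ppan, Dkc1, Polr1a, Wdr12, Nop56 and Polr1b. The median difference of the members was -0.44, against 0.03 for all genes, and 3 of 36 members lay above 0. The 3 AE9a arrays lay below all 3 normal arrays for 21 members and above them for 1, where 15.5% of all genes were below and 16.3% above in that way. At an unadjusted p under 0.05, 13 members passed, as did 23.5% of all genes.

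Of the 3 RNA polymerase I genes 2 fell, and the differences lay between -0.98 and -0.03. Polr1a encodes the largest catalytic subunit of the enzyme. It was at 8.84, 8.64 and 8.03 in normal control and at 7.50, 7.52 and 7.57 in AE9a P1, a 1.97-fold fall (log2 difference -0.98 ± 0.26 SE, limma adjusted p = 0.0165, n = 3 and 3). Polr1b, the second largest subunit, was at 7.58, 7.48 and 7.14 in normal control and at 6.42, 6.42 and 6.45 in AE9a P1, a fall of 1.97-fold (limma adjusted p = 0.0373). In both genes every leukaemia array lay below every normal array. Polr1c, a subunit shared with RNA polymerase III, was close to normal at 7.61, 7.94 and 8.18 against 7.81, 7.82 and 8.21.

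Among the small nucleolar ribonucleoprotein genes, Dkc1, the pseudouridine synthase of box H/ACA particles and the gene of X-linked dyskeratosis congenita, fell most. It was at 8.26, 7.95 and 7.70 in normal control and at 5.99, 6.77 and 6.81 in AE9a P1, 2.73-fold lower (-1.45 ± 0.37, limma adjusted p = 0.0123), with no overlap between the groups. Nop56, a core protein of box C/D particles, was at 8.92, 8.94 and 8.85 in normal control and at 7.98, 8.11 and 8.06 in AE9a P1, 1.81-fold lower (-0.86 ± 0.25, limma adjusted p = 0.0304). The groups were well apart and each was tight on this probe set, whereas a second set of Nop56 alone gave a difference of -0.006. No scaffold or chaperone gene passed, and their differences lay between -0.59 and -0.23. Npm1, the nucleophosmin gene that is often mutated in human acute myeloid leukaemia, was at 9.92, 9.92 and 9.83 in normal control and at 9.52, 9.56 and 9.63 in AE9a P1. The leukaemia arrays were all below the normal ones, yet the test was not passed.

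Of the large subunit factors, Ppan, the peter pan homologue needed to mature the large subunit, was at 8.14, 9.01 and 9.40 in normal control and at 7.49, 7.57 and 7.85 in AE9a P1. That is a 2.32-fold fall (-1.21 ± 0.28, limma adjusted p = 0.00528). Normal replicate 1 stood nearest to the leukaemia arrays. Wdr12, which forms the PeBoW complex of large subunit assembly with Pes1 and Bop1, was at 6.82, 7.03 and 6.31 in normal control and at 5.53, 5.56 and 6.02 in AE9a P1, 2.02-fold lower (-1.01 ± 0.28, limma adjusted p = 0.0198). Its partner Pes1 was at 8.16, 8.22 and 8.34 against 7.38, 7.67 and 7.86, and Bop1 at 7.65, 7.57 and 7.55 against 6.89, 7.31 and 7.20. Both partners lay below normal on every array without passing the test. None of the 10 small subunit factors passed, and their median was -0.26.

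The count of 6 rested on few arrays: it was 1 without AE9a P1 replicate 1 or normal replicate 1, 2 without AE9a P1 replicate 2 or normal replicate 2, 4 without AE9a P1 replicate 3 and 5 without normal replicate 3. Ppan lost its call only without normal replicate 3 (limma adjusted p = 0.0532). With the 8 arrays of low SD left out of the model, none of which belongs to these groups, 1 member rose and 14 fell, where 9.15% of all genes rose and 11.3% fell.

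The same arrays differed in markers of cell types. All 8 erythroid markers fell, with a list mean of 7.78 to 8.59 over normal arrays and 5.56 to 5.67 over AE9a P1 arrays. Of 10 B cell markers 6 fell (list mean 7.42 to 8.02 against 6.17 to 6.71), and the mast cell and basophil list mean was 7.76 to 8.40 against 5.60 to 6.05. The primary granule list mean was 10.2 to 10.8 against 8.37 to 9.71, whereas that of mature neutrophil markers overlapped (11.2 to 11.6 against 11.0 to 11.3). Of 19 cell cycle genes 3 fell, all 19 lay below 0, and the median was -0.96. In bulk RNA, fewer cells of a type and less RNA per cell cannot be told apart, and the part of these markers in the fall of the members was not tested. Myc itself was at 8.46, 8.17 and 8.28 in normal control and 7.05, 6.75 and 6.91 in AE9a P1 (-1.40 ± 0.34, limma adjusted p = 0.00747).

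Of 101 other measured genes of the pathway, 3 rose and 11 fell, with a median of -0.22. Nop10, a small core protein of box H/ACA particles, fell by 1.43 on the log2 scale (limma adjusted p = 0.00188), and Ruvbl1, an ATPase of particle assembly, fell by 1.01. Pak1ip1, a large subunit factor, rose by 1.13 in the same comparison. Of 59 cytosolic ribosomal protein genes 1 fell and none rose, and their median was -0.12.

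**Figure D3:**
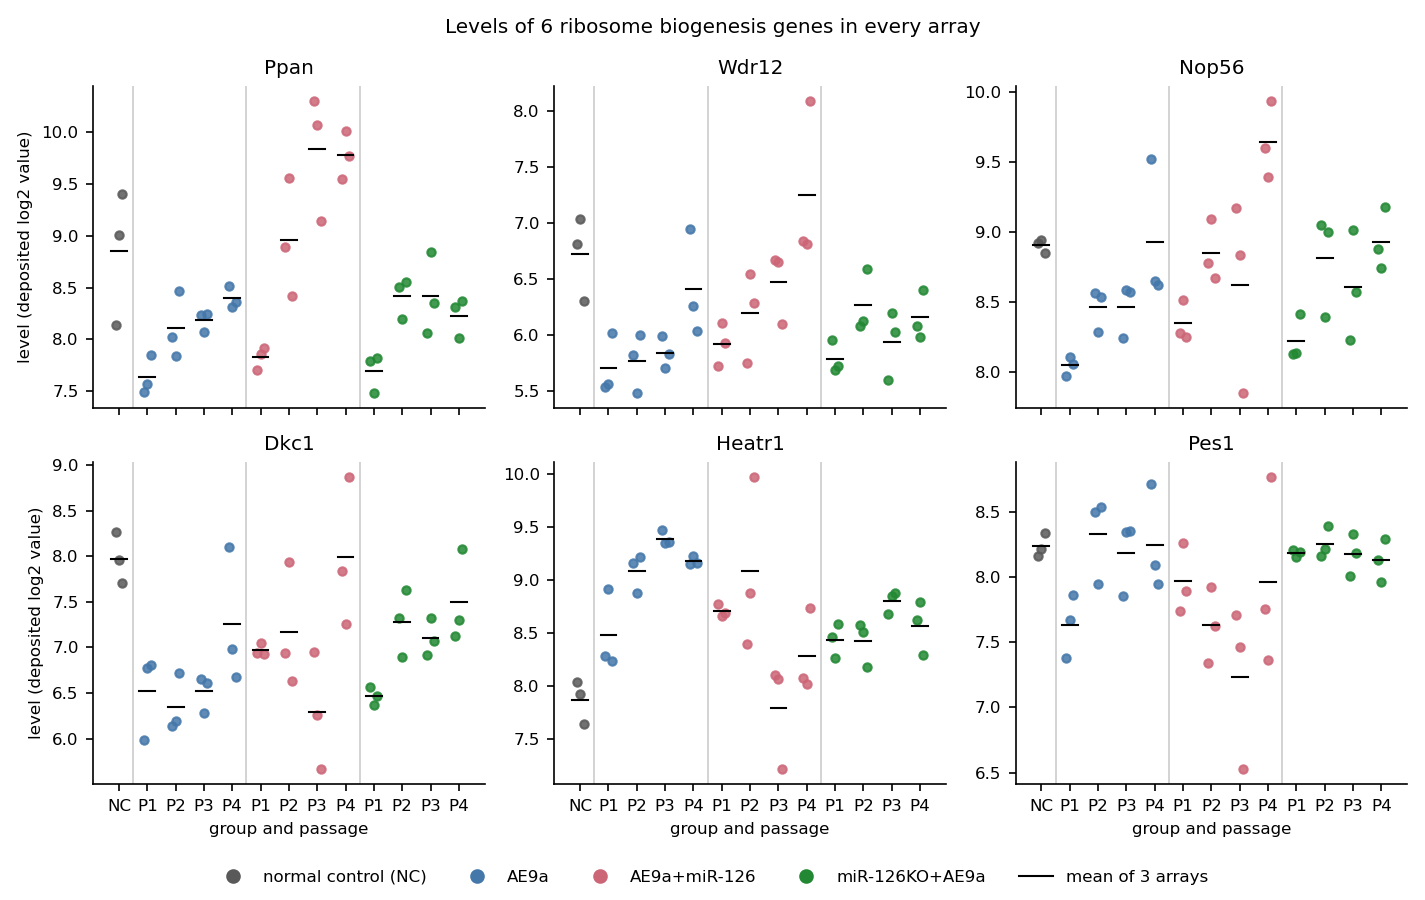
Each panel shows 1 member, with 1 point per array (log2 level) by group and a line for the mean of 3 arrays, for normal control (NC) and the 3 leukaemias at passages 1 to 4. Ppan climbs to 9.15 to 10.31 at AE9a+miR-126 P3 and 9.55 to 10.02 at P4, above all AE9a arrays, whereas Heatr1 lies at 7.22 to 8.11 at AE9a+miR-126 P3, below them.

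At P1 the other leukaemias were set against the same 3 normal arrays, so these comparisons are not independent of the first. With added miR-126, 1 member rose and 1 fell, where 9.73% of all genes changed (4.56% higher, 5.18% lower). Ppan was at 7.70, 7.86 and 7.91, 2.03-fold below normal (-1.02 ± 0.28, limma adjusted p = 0.0154). Heatr1, a factor needed for ribosomal RNA transcription and for the small subunit processome, rose from 8.04, 7.92 and 7.65 in normal control to 8.77, 8.66 and 8.69, 1.79-fold (0.84 ± 0.26, limma adjusted p = 0.0384). Its arrays did not overlap, as for 4 members above normal and 8 below, where 16% and 14.8% of all genes did so. Wdr12 at 5.72, 6.11 and 5.93 and Dkc1 at 6.94, 7.05 and 6.93 lay below all normal arrays without passing (limma adjusted p = 0.0652 and 0.0885). The members' median was -0.08. The Heatr1 call was lost on leaving out any 1 of the 6 arrays, and no member passed without AE9a+miR-126 P1 replicate 1 or normal replicate 2. The other pathway genes gave 5 of 101 higher and 2 lower. Beside these values all 8 erythroid markers fell (list mean 7.78 to 8.59 over normal arrays, 5.22 to 5.51 here), as did 5 of 7 mast cell markers (7.76 to 8.40, 5.25 to 6.07), 7 of 10 B cell markers, 2 of 7 primary granule markers (10.2 to 10.8, 8.94 to 9.16) and 4 of 19 cell cycle genes (9.18 to 9.65, 8.34 to 8.43). Their part was not tested.

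In leukaemia lacking miR-126, 4 members fell at P1 and none rose, where 10.8% of all genes changed (4.88% higher, 5.91% lower). Dkc1 was at 6.56, 6.37 and 6.47, 2.84-fold below normal (-1.51 ± 0.37, limma adjusted p = 0.00626). Ppan was at 7.79, 7.48 and 7.82, 2.22-fold below (-1.15 ± 0.28, limma adjusted p = 0.00529). Wdr12 was at 5.95, 5.69 and 5.72 (1.91-fold lower, limma adjusted p = 0.0259) and Polr1a at 7.73, 7.29 and 7.96 (-0.84 ± 0.26, limma adjusted p = 0.0321). The arrays of these 4 genes did not overlap with normal, and Ppan was the only member past the test in all 3 leukaemias. In all, 5 members lay above and 10 below normal without overlap, where 16.9% and 14.4% of all genes did so. The members' median was -0.07, against -0.44 with AE9a alone. The count was 2 without miR-126KO+AE9a P1 replicate 2, normal replicate 1 or normal replicate 2. Heatr1 was at 8.46, 8.26 and 8.59 here and at 8.29, 8.92 and 8.24 with AE9a alone, above every normal array in both without passing the test. The other pathway genes gave 3 higher and 1 lower, and Myc was not called (-0.48, limma adjusted p = 0.439). Beside these values, 10 of 15 mature neutrophil markers and 9 of 10 B cell markers fell in this comparison, and their part was not tested.

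The main question was the effect of added miR-126 on AE9a leukaemia, averaged over the 4 passages with 12 arrays on each side. Of the 36 members 6 rose and 4 fell, a share of the members below that of all genes, of which 55.1% changed (30.7% higher, 24.3% lower). Their median difference was 0.09 and that of all genes 0.08. Among the 11090 brighter genes the median was -0.27, with 12.1% higher and 45.9% lower. The members that rose were Ppan, Rrs1, Wdr12, Nop56, Npm1 and Dkc1; those that fell were Heatr1, Utp15, Pes1 and Bysl. No member had its 12 arrays apart from the other 12, as 0.0135% of all genes did in each direction.

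By role, large subunit assembly, with 13 of the 36 members, held 3 of the 6 genes that rose. Ppan ranged from 7.70 through a median of 9.35 to 10.31 with added miR-126, and from 7.49 through 8.15 to 8.52 with AE9a alone. The average difference was 1.02 ± 0.14, or 2.03-fold (limma adjusted p = 1.32e-06), and it was past the threshold under every processing setting tried, between 0.62 and 1.35. Wdr12 was too, between 0.50 and 1.00. Rrs1, a regulator of large subunit assembly, ranged from 6.10 through 6.55 to 7.08 against 5.97 through 6.16 to 6.28 (0.38 ± 0.09, 1.30-fold, limma adjusted p = 0.00144). Wdr12 ranged from 5.72 through 6.41 to 8.09 against 5.48 through 5.91 to 6.95 (0.53 ± 0.14, 1.44-fold, limma adjusted p = 0.0026). The highest array of Ppan was at P3, and those of Rrs1 and Wdr12 were at P4. The fourth gene of this role to pass was Pes1, the pescadillo gene and partner of Wdr12, which went the other way: 6.52 through 7.73 to 8.77 against 7.38 through 8.02 to 8.72 (-0.40 ± 0.14, 1.32-fold lower, limma adjusted p = 0.015).

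Small subunit assembly, with 10 of the 36 members, held 3 of the 4 genes that fell and none that rose. Heatr1 ranged from 7.22 through a median of 8.53 to 9.97 with added miR-126, and from 8.24 through 9.16 to 9.47 with AE9a alone (-0.57 ± 0.13, 1.48-fold lower, limma adjusted p = 0.000854). Utp15, a partner in the same processome that also serves ribosomal RNA transcription, ranged from 6.66 through 7.67 to 8.35 against 7.24 through 8.06 to 8.44 (-0.42 ± 0.14, limma adjusted p = 0.0139). Bysl, the bystin gene of late small subunit assembly, ranged from 5.23 through 6.21 to 7.18 against 6.10 through 6.41 to 6.89 (-0.34 ± 0.14, limma adjusted p = 0.0344). The lowest values of Heatr1 and Bysl were at P3.

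The snoRNP and scaffold genes gave 1 call per group, each upward. Nop56 had a median of 8.81, from 7.85 to 9.94, against 8.55, from 7.98 to 9.52 (0.39 ± 0.13, 1.31-fold, limma adjusted p = 0.0115). Dkc1 had a median of 6.94, from 5.66 to 8.87, against 6.66, from 5.99 to 8.10 (0.44 ± 0.19, 1.36-fold, limma adjusted p = 0.0433). Npm1 had a median of 10.03, from 8.94 to 10.70, against 9.62, from 9.46 to 10.30 (0.34 ± 0.13, 1.27-fold, limma adjusted p = 0.0253). These ranges overlap widely. Dkc1 lost its call in 13 of 24 runs that left out 1 array, Bysl in 10 of 24 and Npm1 in 3 of 24.

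The next genes of each role did not pass. Polr1c ranged from 6.43 through 7.97 to 8.51 against 7.61 through 8.20 to 8.60 (-0.29, limma adjusted p = 0.0846), and Polr1b from 6.31 through 6.86 to 8.53 against 6.38 through 6.69 to 7.73 (0.29, limma adjusted p = 0.102). Gar1, another H/ACA core protein, had medians of 6.32 and 6.28, and Nop58, the partner of Nop56, of 8.07 and 8.09. Nolc1, a chaperone of nucleolar particles, had medians of 6.61 and 6.49. Ncl, nucleolin, a major RNA-binding protein of the nucleolus, had a median of 9.51 in both arms but ran from 7.36 to 10.70 with added miR-126 and from 9.07 to 10.12 with AE9a alone.

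The downward calls moved with the spread of the arrays. Leaving out the 8 arrays of low SD removes AE9a+miR-126 P3 and leaves the average over P1, P2 and P4. In that arm P2 and P4 then rest on replicate 3 alone. Its P4 replicate 3 had the highest median member difference from normal of all arrays (0.85). The difference of Heatr1 was then 0.22, of Utp15 -0.01, of Pes1 0.05 and of Bysl 0.35. With the array SD as a covariate 15 members rose and none fell, where 6.77% of all genes rose and 5.91% fell. After quantile normalization 19 rose and 1 fell, where 20.1% of all genes rose and 18.5% fell. The share of upward calls, in members and in all genes, thus depends on the scaling. When every array was scaled to the same SD, 8 rose and 2 fell (15.6% and 28.5% of all genes), with Heatr1 at -0.38 (limma adjusted p = 0.0082). Leaving out AE9a+miR-126 P4 replicate 3 gave 5 up and 8 down, and leaving out AE9a+miR-126 P3 replicate 3 gave 9 up and 3 down. With the arrays of low SD left out, the members' median was 0.34, against 0.02 for all genes.

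**Figure D4:**
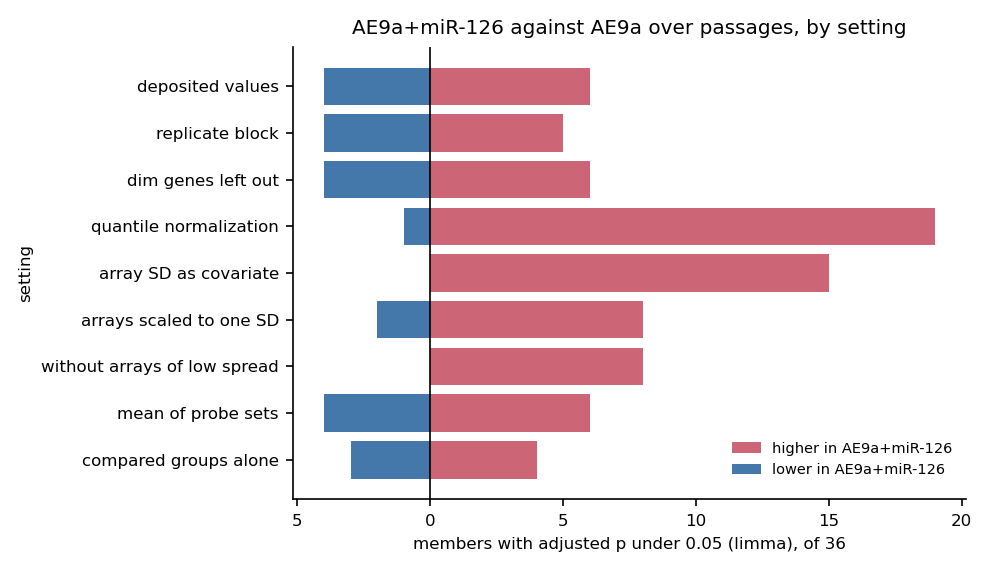
Bars give the number of the 36 members past the limma test (adjusted p under 0.05) in AE9a+miR-126 against AE9a over passages, to the right for higher and to the left for lower, with 1 row per processing setting. The split is 6 up and 4 down as deposited and 19 up and 1 down after quantile normalization. The row without the arrays of low SD has no AE9a+miR-126 array at P3 and rests on replicate 3 alone at P2 and at P4.

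The other pathway genes fell more often than they rose in this comparison: 3 of 101 rose and 36 fell, with a median of -0.20. Under the covariate for array SD this turned to 22 up and 1 down, and after quantile normalization to 18 up and 13 down. Taf1d, a subunit of the selectivity factor of RNA polymerase I, rose by 1.16, whereas Znrd1, a polymerase I subunit, fell by 1.04, and Dcaf13, a small subunit factor, fell by 0.79 on the log2 scale. Of 59 ribosomal protein genes 12 rose and 1 fell. Myc was 0.51 ± 0.17 higher (limma adjusted p = 0.0117), and its antagonists Mxd1, Mxi1 and Mnt fell by 1.20, 1.04 and 0.55. Of 15 mature neutrophil markers 14 fell (median -2.06), as did 6 of 7 mast cell markers, 7 of 11 monocyte markers and 11 of 19 cell cycle genes. The part of these markers in the members' values was not tested.

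Passage by passage, the members began above AE9a and then split. At P1 all 36 lay above AE9a alone, with differences of 0.04 to 0.64 and a median of 0.36 against -0.01 for all genes, and the 3 arrays lay above the other 3 for 25 members, where 10.8% of all genes did so. None passed the limma test, in which 0.0316% of all genes changed (0.0271% higher, 0.00451% lower); the AE9a P1 arrays of this comparison are those that were low against normal control. Wdr74, a large subunit factor, was at 7.65, 7.91 and 7.86 against 6.90, 7.23 and 7.46, and Ddx21, a nucleolar RNA helicase, at 9.36, 9.48 and 9.29 against 8.59, 9.10 and 8.94. Nolc1 was at 6.59, 6.64 and 6.38 against 5.62, 6.08 and 6.35, and Rrp9, a component of the U3 particle, at 6.55, 7.01 and 6.65 against 6.19, 6.39 and 6.34. Of the other pathway genes 90 of 101 lay above 0 at P1, and 54 of 59 ribosomal protein genes did.

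At P2 no member passed, where 8.85% of all genes changed (3.18% higher, 5.68% lower), and the median was 0.07. Ppan was at 8.90, 9.56 and 8.42 with added miR-126 and at 8.02, 7.84 and 8.46 with AE9a alone, just short of the threshold (0.85, limma adjusted p = 0.0503), with 1 array of each group overlapping. Polr1a was at 7.83, 8.16 and 8.96 against 7.64, 7.49 and 7.75, and Dkc1 at 6.94, 7.94 and 6.63 against 6.14, 6.19 and 6.71. Pes1 already lay below, at 7.34, 7.93 and 7.63 against 8.50, 7.95 and 8.54, with no overlap. In all, 3 members lay above and 2 below at P2 without overlap, where 18.7% and 16.6% of all genes did so. Heatr1 was scattered at 8.40, 8.88 and 9.97 against 9.16, 8.88 and 9.22.

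At P3, 2 members rose and 13 fell, where 52.2% of all genes changed (27.3% higher, 24.8% lower). Among the 11090 brighter genes, to which all members belong, 10.3% rose and 48% fell, with a median of -0.59, and 36.1% of the members fell, with a median of -0.38. Ppan was at 10.31, 10.07 and 9.15 against 8.23, 8.07 and 8.25, 3.15-fold higher (1.66 ± 0.28, limma adjusted p = 3.17e-05). Heatr1 was at 8.11, 8.07 and 7.22 against 9.47, 9.35 and 9.36, 3.02-fold lower (-1.59 ± 0.26, limma adjusted p = 2.66e-05). Both were far outside the AE9a range on every array. In all, 3 members lay above and 10 below at P3 without overlap, where 30.8% and 26.2% of all genes did so. Rrs1 also rose, at 6.65, 6.60 and 6.89 against 6.21, 6.16 and 6.10 (1.47-fold, limma adjusted p = 0.0141).

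The genes that fell at P3 were Heatr1, Nop14, Bysl, Ddx10, Noc4l and Utp15 of the small subunit, Pes1, Rrp1b, Noc3l and Bop1 of the large, and Ddx21, Ncl and Polr1c. Subunit assembly genes also make up most of the 36 members (10 of the small and 13 of the large subunit). Nop14, a processome component, was at 6.69, 6.73 and 6.15 against 7.05, 7.51 and 7.71 (-0.90, limma adjusted p = 0.000825). Bysl was at 5.59, 5.23 and 5.29 against 6.60, 6.47 and 6.39 (-1.12, limma adjusted p = 0.00154), low on all 3 arrays. Ncl was at 9.33, 9.07 and 7.36 against 9.48, 9.32 and 9.69, and its fall of 0.91 came with 1 array far below the other two. A fall was called for 57 of the 101 other pathway genes and a rise for 1.

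Much of this P3 count went with AE9a+miR-126 P3 replicate 3, the array with the lowest SD. Without it, 2 members rose (Ppan by 2.00, Wdr12 by 0.82) and 3 fell (Heatr1 by 1.30, Nop14 by 0.71, Bysl by 1.08), and the median moved from -0.38 to -0.10. All 3 arrays of this group had an SD below 1.8, so no value at P3 is free of arrays of low SD. With array SD as a covariate 2 rose and none fell (3.93% and 3.94% of all genes), with Heatr1 at -0.66, Nop14 at -0.31 and Bysl at -0.18, and Ncl, Utp15, Noc4l, Bop1 and Noc3l above 0. With arrays scaled to the same SD 4 rose and 11 fell (14.1% and 31.3% of all genes). Ppan stayed past the threshold, between 1.07 and 2.35, under each setting that could be run at P3.

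At P4, 4 members rose and 1 fell, where 24.7% of all genes changed (12.7% higher, 12% lower) and, of the brighter genes, 6.24% rose and 23.2% fell. Ppan was at 9.55, 10.02 and 9.77 against 8.52, 8.31 and 8.36, 2.61-fold higher (1.38 ± 0.28, limma adjusted p = 0.000686), with no overlap. Wdr12 was at 6.84, 6.81 and 8.09 against 6.95, 6.26 and 6.03 (0.83, limma adjusted p = 0.0291), and Nop56 at 9.60, 9.39 and 9.94 against 9.52, 8.65 and 8.62 (0.71, limma adjusted p = 0.0388). In both, AE9a P4 replicate 1 reached into the other group. Rrs1 was at 6.50, 6.24 and 7.08 against 6.08, 6.18 and 5.97 (0.53, limma adjusted p = 0.0369). Heatr1 was at 8.08, 8.02 and 8.74 against 9.15, 9.23 and 9.16, 1.87-fold lower (-0.90 ± 0.26, limma adjusted p = 0.0146). In all, 2 members lay above and 1 below at P4 without overlap, where 15% and 13.5% of all genes did so. Without AE9a+miR-126 P4 replicate 3, where members were high throughout, 1 rose (Ppan by 1.39) and 5 fell (Heatr1, Utp15, Bysl, Pes1 and Polr1a), and the median went from 0.27 to -0.02. With quantile normalization 15 rose and none fell at P4 (9.1% and 9.13% of all genes), and Heatr1, at -0.41, did not pass.

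Ppan, Rrs1, Wdr12, Nop56 and Npm1 had group means above AE9a at all 4 passages. Since all 36 members lay above AE9a at P1, none could be below at all 4. In miR-126KO+AE9a, 8 of 36 members were above AE9a at all 4 passages and 1 was below. The share of all genes with such means is not given here. The differences of Ppan were 0.19, 0.85, 1.66 and 1.38 from P1 to P4 and those of Wdr12 0.22, 0.43, 0.63 and 0.83. For Heatr1 they were 0.23, 0.00, -1.59 and -0.90.

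**Figure D5:**
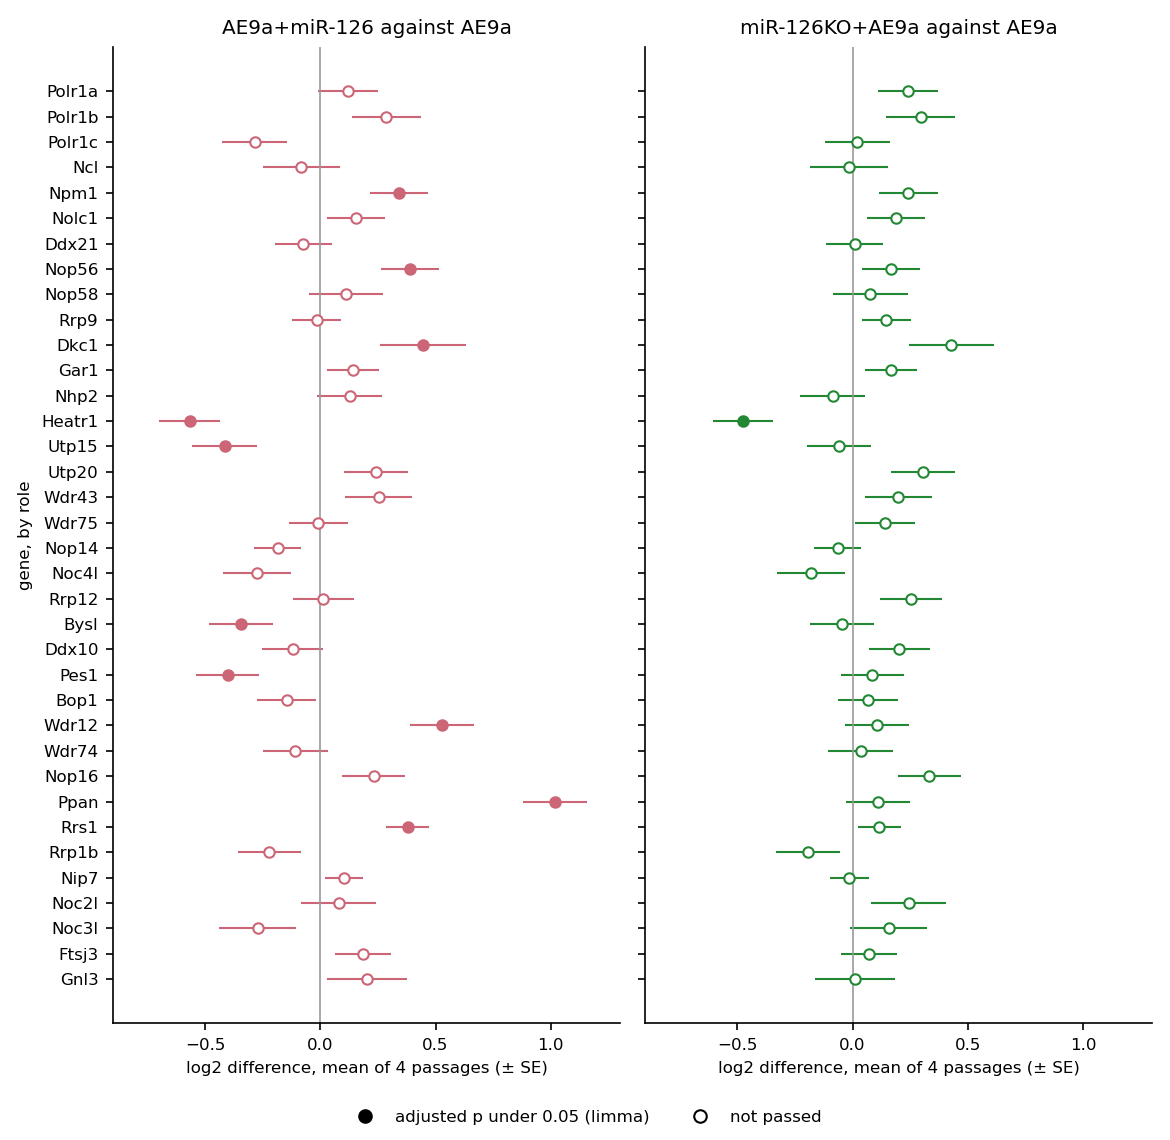
For each of the 36 members, in order of role, points give the log2 difference from AE9a averaged over 4 passages, for AE9a+miR-126 on the left and miR-126KO+AE9a on the right; bars are ± SE and filled points passed the limma test. Ppan (1.02) lies farthest right on the left panel, and Heatr1 is the lowest point of both panels (-0.57 and -0.48) and the only filled one on the right.

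In leukaemia lacking miR-126, 1 of the 36 members differed from AE9a leukaemia when averaged over passages. This was Heatr1, which fell, where 8.17% of all genes changed (2.88% higher, 5.29% lower). It ranged from 8.18 through a median of 8.58 to 8.88 against 8.24 through 9.16 to 9.47 (-0.48 ± 0.13, 1.39-fold lower, limma adjusted p = 0.0185). It was below the AE9a mean at each passage, by 0.04, 0.66, 0.59 and 0.61, and the call held on leaving out any 1 of the 24 arrays and under each other setting tried (-0.48 to -0.39). The AE9a arrays are the same as in the comparison with added miR-126, where Heatr1 also fell.

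Most other members had differences above 0 without passing. The median of the 36 was 0.11 against 0.01 for all genes, and 27 of 36 lay above 0. Nop16, a large subunit factor, ranged from 7.08 through 7.32 to 7.62 against 6.65 through 6.94 to 7.86 (0.33, limma adjusted p = 0.152). Dkc1 ranged from 6.37 through 7.10 to 8.08 against 5.99 through 6.66 to 8.10 (0.43, limma adjusted p = 0.189), and Utp20, a processome component, from 6.60 through 6.88 to 7.39 against 6.21 through 6.60 to 7.43 (0.30, limma adjusted p = 0.226). Ppan, the gene with the largest gain under added miR-126, had medians of 8.25 and 8.15 here. Of the other pathway genes 1 rose (Aatf, a nucleolar assembly factor, 0.46) and 1 fell (Riok2, a kinase of late small subunit assembly, which fell by 0.41), and Myc stood at 0.07 (limma adjusted p = 0.912). The count was 2 without AE9a P4 replicate 1. Beside these values 14 of 15 mature neutrophil and 5 of 7 primary granule markers fell and 4 of 8 erythroid markers rose, and their part was not tested.

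No member passed at a single passage between miR-126KO+AE9a and AE9a, where 2.09% of all genes changed at P1 (1.5% higher, 0.591% lower), 3.99% at P2 (1.18% and 2.82%), 1.05% at P3 (0.401% and 0.649%) and 1.33% at P4 (0.307% and 1.03%). At P1, 32 of 36 lay above 0, and the 3 arrays were above the AE9a arrays for 19 members, as for 11.8% of all genes. Noc3l, an assembly factor of the large subunit, was at 7.67, 7.39 and 7.40 against 6.41, 6.77 and 6.64, Rrp9 at 6.78, 6.87 and 6.93 against 6.19, 6.39 and 6.34, Nop14 at 7.39, 7.35 and 7.33 against 6.76, 6.98 and 6.89, and Noc2l at 8.86, 8.75 and 8.77 against 7.77, 8.09 and 8.25. At P2 Noc4l was at 7.62, 7.39 and 7.17 against 8.47, 7.95 and 8.20, and Npm1 at 10.19, 9.94 and 10.87 against 9.64, 9.48 and 9.80. Dkc1 was at 7.32, 6.90 and 7.63 against 6.14, 6.19 and 6.71, and Heatr1 at 8.58, 8.51 and 8.18 against 9.16, 8.88 and 9.22. These groups did not overlap, but none of the differences passed over all genes. At P2, 8 members lay above and 3 below without overlap, where 12.2% and 13.8% of all genes did so. At P3 Heatr1 was at 8.68, 8.86 and 8.88 against 9.47, 9.35 and 9.36, Dkc1 at 6.92, 7.32 and 7.07 against 6.65, 6.28 and 6.61, and Nop16 at 7.08, 7.56 and 7.29 against 6.87, 6.87 and 6.91, each without overlap. Nop14 overlapped, at 7.36, 7.01 and 6.89 against 7.05, 7.51 and 7.71. At P3, 2 members lay above and 2 below without overlap, where 6.76% and 12.5% of all genes did so. At P4 Heatr1 was again below every AE9a array, at 8.62, 8.79 and 8.30 against 9.15, 9.23 and 9.16. In all, 0 members lay above and 2 below at P4 without overlap, where 8.43% and 10.4% of all genes did so. In the same comparison Noc4l was at 7.92, 7.83 and 7.96 against 8.46, 8.14 and 8.26, Utp20 at 6.78, 6.98 and 7.39 against 7.43, 6.35 and 6.34, and Bop1 at 7.33, 7.19 and 7.58 against 8.01, 7.50 and 7.43.

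Between P1 and P4 of AE9a leukaemia 1 member, Rrp12, rose by the test, while nearly all had higher means at P4. Of the 36 members 35 had positive differences, with a median of 0.55 against -0.05 for all genes. The 3 P4 arrays lay above the 3 P1 arrays for 19 members and below for none, where 13.2% and 15.2% of all genes did so. By limma 1 member passed, where 2.94% of all genes changed (2.02% higher, 0.915% lower), and 18 had an unadjusted p under 0.05, as did 14.4% of all genes. Rrp12, a factor of subunit maturation and export, was at 5.92, 6.51 and 6.18 at P1 and at 7.64, 6.95 and 7.02 at P4, 2.00-fold higher (1.00 ± 0.27, limma adjusted p = 0.033). Nop56 went from 7.98, 8.11 and 8.06 to 9.52, 8.65 and 8.62 (0.88, limma adjusted p = 0.0505), whereas a second probe set of Nop56 alone gave -0.65. Gnl3, nucleostemin, a nucleolar GTPase of stem and dividing cells, went from 6.82, 7.38 and 7.16 to 8.84, 8.02 and 7.65 (1.05, limma adjusted p = 0.0988), and Wdr43, a processome component, from 8.43, 8.63 and 8.56 to 9.83, 9.23 and 9.15 (0.86, limma adjusted p = 0.107). In all 4 genes P4 replicate 1 was the highest array and the groups were apart.

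The Rrp12 call was lost without AE9a P1 replicate 1 or 3 or AE9a P4 replicate 1 or 3. With the 8 arrays of low SD left out of the model, 15 members rose and none fell, where 5.44% of all genes rose and 3.01% fell. Of the other pathway genes 3 of 101 rose, none fell and 86 lay above 0, and of the ribosomal protein genes none passed while 53 of 59 lay above 0. Myc rose from 7.05, 6.75 and 6.91 to 8.89, 8.66 and 8.57 (limma adjusted p = 0.0016). In the same comparison 2 of 8 erythroid and 2 of 7 mast cell markers rose and 1 of 10 B cell markers fell, and their part was not tested.

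With added miR-126, 8 members rose from P1 to P4 and none fell, where 24.3% of all genes changed (11.1% higher, 13.2% lower). Ppan rose from 7.70, 7.86 and 7.91 to 9.55, 10.02 and 9.77, 3.87-fold (1.95 ± 0.28, limma adjusted p = 5.82e-06). Nop56 rose from 8.28, 8.52 and 8.25 to 9.60, 9.39 and 9.94, 2.44-fold (1.29 ± 0.25, limma adjusted p = 0.000397). On these probe sets both genes were tight within each group and far apart, whereas a second set of Nop56 alone gave a difference of 0.28. In all, 11 members lay above and 0 below without overlap, where 13.5% and 14.2% of all genes did so. Wdr12 rose from 5.72, 6.11 and 5.93 to 6.84, 6.81 and 8.09, 2.51-fold (1.33 ± 0.28, limma adjusted p = 0.000838), and Gnl3 from 7.73, 7.90 and 7.65 to 9.06, 8.52 and 9.31, 2.30-fold (1.20 ± 0.35, limma adjusted p = 0.0126). Wdr43, Polr1b, Nop58 and Dkc1 also rose, by 0.90 to 1.01.

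Without AE9a+miR-126 P4 replicate 3, Ppan, Nop56, Gnl3 and Wdr12 rose (by 1.96, 1.14, 1.03 and 0.90), and Bysl, Utp15 and Noc3l fell (by 0.91, 0.83 and 0.82). With array SD as a covariate 18 rose and none fell, where 8.84% of all genes rose and 6.49% fell. The count was 4 without AE9a+miR-126 P1 replicate 1 or P4 replicate 1 and 5 without P1 replicate 3. Of the other pathway genes 5 rose and 9 fell, and of 59 ribosomal protein genes 12 rose and none fell. Myc rose by 2.32 and Mxd1 fell by 2.21, while 14 of 15 mature neutrophil markers fell, with a list mean of 9.45 to 11.1 at P1 and 6.37 to 6.70 at P4. The part of this marker change in the members' values was not tested.

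In leukaemia lacking miR-126 no member passed from P1 to P4, where 4.04% of all genes changed (1.38% higher, 2.66% lower). At an unadjusted p under 0.05, 3 members and 13.1% of all genes passed. The median was 0.09. Polr1a went from 7.73, 7.29 and 7.96 to 8.24, 8.51 and 8.63 (0.80, limma adjusted p = 0.0879), Nop56 from 8.13, 8.13 and 8.42 to 8.88, 8.74 and 9.17 (0.70, limma adjusted p = 0.135), Dkc1 from 6.56, 6.37 and 6.47 to 7.12, 7.30 and 8.08 (1.04, limma adjusted p = 0.135) and Npm1 from 9.55, 9.42 and 9.47 to 10.08, 9.86 and 10.03 (0.51, limma adjusted p = 0.398). These 4 did not overlap between passages. In all, 12 members lay above and 3 below without overlap, where 11.4% and 12.4% of all genes did so. Myc differed by 0.03.

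Whether the effect of added miR-126 changed from P1 to P4 was tested directly as a difference of differences. It changed for Ppan, from 0.19 at P1 to 1.38 at P4 (1.19 ± 0.39, limma adjusted p = 0.0474), and for Heatr1, from 0.23 to -0.90 (-1.13 ± 0.37, limma adjusted p = 0.0482), where 10.5% of all genes changed (4.59% higher, 5.94% lower). Utp15 (-1.02, limma adjusted p = 0.0841) and Polr1a (-0.78, limma adjusted p = 0.144) did not pass. The Ppan call was lost in 11 and the Heatr1 call in 10 of 12 runs without 1 array, and 10 members passed without AE9a+miR-126 P4 replicate 3. On the second probe set of Ppan, P4 exceeded P1 by 1.06 with added miR-126 and by 1.02 with AE9a alone. With the mean of probe sets no member passed upward, so the Ppan call was lost, and 1 passed downward. For the effect of miR-126 loss no member passed, with a median change of -0.40 and 0.428% of all genes called. The largest of these were Noc4l (-0.95), Noc3l (-0.96), Rrp12 (-0.78) and Bop1 (-0.71), with limma adjusted p from 0.572 to 0.686.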

How the data were processed

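Gene expression was measured in sorted marrow cells of 39 mice, 3 in each of 13 groups, on 1 array each. The deposited values are on a log2 scale; RMA and Partek 6.0 are named in the submitters' processing notes, with no build or batch step given in the sources used here, and no array dates were used. Of 27037 probe sets, 23521 name 1 gene, 1814 several and 1702 none. For each of 22180 genes the single-symbol probe set with the highest mean was used. Array medians lay between 5.38 and 5.76. The number of arrays limits the precision.

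A limma model (limma 3.58.1, R 4.3.3) with 13 group means and 26 residual degrees of freedom was fitted to all genes, with Benjamini-Hochberg adjustment over all of them and a threshold of 0.05; the median SE was 0.222 for 3 against 3 arrays and 0.111 for averages over passages. Tested on simulated data of AE9a P1 against normal control over 22180 genes, it recovered 5 of 50 genes changed 1.5-fold, 25 of 50 changed 2-fold and 49 of 50 changed 4-fold. The simulation changed far fewer genes than the 8.87% called in this comparison, with noise independent between genes. Its recovery may therefore differ from that in these data.

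The members and lists were chosen with earlier results of these data known. Values in arrays are given for the 2 members of each role with the smallest adjusted p in the average miR-126 comparison, the 4 smallest in each other comparison, and Polr1b, Ncl, Npm1, Dkc1 and Pes1; other lists are given by counts, with up to 3 genes each and Myc. Marker lists were fixed with the same knowledge. Alternatives were a replicate block, the compared groups alone, dim genes left out, quantile normalization, array SD as covariate, arrays scaled to 1 SD, arrays of SD under 1.8 left out, the mean of all probe sets, and each array left out.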

Additional observations from a re-analysis of the deposited data

Results flagged for a closer look

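The effect of added miR-126 on Ppan was larger at P4 than at P1 by 1.19, and that on Heatr1 was lower by 1.13 (a change of -1.13), both by limma's test of the difference itself (limma adjusted p = 0.0474 and 0.0482). Both calls were lost with the replicate number as a block, and leaving out 1 array lost the Ppan call in 11 and the Heatr1 call in 10 of 12 runs. The Ppan call was also lost with the mean of probe sets. The second probe set of Ppan rose from P1 to P4 by 1.06 with added miR-126 and by 1.02 with AE9a alone. Ppan lay in all 3 AE9a+miR-126 P4 arrays above all AE9a P4 arrays and Heatr1 below them, while at P1 neither passed. Of all genes 15% lay above and 13.5% below at P4 in that way.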

How the results depend on the processing

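Counts of members past the limma test moved as follows, and the cause was not tested. The shares of all genes moved with the settings too. For AE9a P1 against normal control they were 3.22% higher and 5.64% lower as deposited, and 9.15% and 11.3% without the arrays of low SD. For AE9a+miR-126 over passages they were 30.7% and 24.3% as deposited. They were 20.1% and 18.5% there after quantile normalization, and 6.77% and 5.91% with array SD as a covariate. A moved count is therefore not a result about the members alone. Without the arrays of low SD, AE9a+miR-126 rests on replicate 3 alone at P2 and at P4. Its P4 replicate 3 had the highest median member difference from normal of all arrays (0.85). Under that setting, the AE9a+miR-126 counts for P4 against P1, the changed effect and single passages cannot show more changed members, since they rest on 1 array per group there. Without the 8 arrays of low SD, which leave no AE9a+miR-126 array at P3, so that P3 could not be fitted, the count for AE9a P1 against normal control was 15 in place of 6, for AE9a+miR-126 P1 6 in place of 2, for miR-126KO+AE9a P1 8 in place of 4, for miR-126KO+AE9a over passages 2 in place of 1, for P4 against P1 15 in AE9a (1 before), 18 in AE9a+miR-126 (8) and 5 in miR-126KO+AE9a (0), for the changed miR-126 effect 1 in place of 2, and for single passages 17, all upward, in AE9a+miR-126 (20: 6 up, 14 down) and 3 in miR-126KO+AE9a (0). With array SD as a covariate the count was 6 for AE9a+miR-126 P1 and 8 for miR-126KO+AE9a P1 against normal control, 5 for miR-126KO+AE9a over passages (4 up, 1 down), 2 in AE9a, 18 in AE9a+miR-126 and 4 in miR-126KO+AE9a for P4 against P1, 1 for the changed miR-126 effect, and 19 (all up) in AE9a+miR-126 and 3 in miR-126KO+AE9a at single passages. Quantile normalization gave 7 for miR-126KO+AE9a P1, 20 for AE9a+miR-126 over passages (10), 16 and 2 for P4 against P1 in AE9a+miR-126 and miR-126KO+AE9a, 1 for the changed effect, and 31 (26 up, 5 down) and 1 at single passages. Scaling to the same SD gave 25 at single passages (13 up, 12 down) and 1 for the changed effect, for which the mean of probe sets also gave 1. With the compared groups alone the counts were 5 for AE9a+miR-126 P1, 2 for miR-126KO+AE9a over passages, for P4 against P1 5 in AE9a, 4 in AE9a+miR-126 and 5 in miR-126KO+AE9a, 1 for each changed effect, and 9 (3 up, 6 down) and 4 at single passages. Leaving out dim genes gave 2 for AE9a P4 against P1. The replicate numbers did not pair the arrays of the study as a whole: over 42 same-numbered pairs from 14 pairs of groups, deviations from group means correlated between -0.34 and 0.30, 7 were over 0.1, and every pair was over 0.1 in 1 pair of groups, miR-126KO+AE9a and AE9a at P2, where 0 members passed with or without the block. With the replicate number as a block, 0 members passed for the changed miR-126 effect, Dkc1 lost its call over passages (5 up, 4 down), and no other count moved by over 1.5 times. The median change of the miR-126 effect was -0.10 and became 0.33 after quantile normalization, 0.39 with the covariate and 0.44 without the arrays of low SD.

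Leaving out 1 array gave 1 to 5 for AE9a P1, 0 to 1 for AE9a+miR-126 P1 and 2 to 4 for miR-126KO+AE9a P1 against normal control, 8 to 13 and 1 to 2 for the averages over passages (4 up and 6 down without AE9a+miR-126 P2 replicate 2, 5 up and 8 down without P4 replicate 3), 0 to 1, 4 to 9 and 0 for P4 against P1, 0 to 10 and 0 for the changed effects, and 13 to 26 and 0 at single passages.

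Directions that turned in AE9a+miR-126 against AE9a over passages were Ncl at 0.55, Utp15 at 0.0306, Wdr74 at 0.46, Bysl at 0.12 and Pes1 at 0.0605 with the covariate; Heatr1 at 0.22, Bysl at 0.35 and Pes1 at 0.0488 without the arrays of low SD; Wdr75 at 0.37 after quantile normalization; and Ddx21 at 0.31, 0.37, 0.45 and 0.33 under quantile normalization, the covariate, the arrays left out and the mean of probe sets. At P2 Heatr1 was at 0.89 without the arrays of low SD, which leaves AE9a+miR-126 P2 with replicate 3 alone. At P3 Polr1a, Wdr43 and Nip7 were at 0.55, 0.72 and 0.71 after quantile normalization, and Ncl, Utp15, Noc4l, Bop1 and Noc3l at 0.37, 0.0172, 0.019, 0.14 and 0.17 with the covariate. Wdr74 was at 0.67 at P4 and 0.59 for P4 against P1 with it.

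Ppan and Wdr12 with added miR-126 over passages, and Heatr1 with miR-126 loss, kept direction and call under every setting and with any 1 array left out. The number of arrays and the low SD of 8 of them limit all counts.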

Other observations

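The probe set that names Fbl, the methyltransferase of box C/D particles, together with Tulp4 had medians of 6.77 in normal control, 6.49 with AE9a, 6.72 with AE9a+miR-126 and 6.81 with miR-126KO+AE9a. AE9a P1 was 0.64 below normal control on it. The set shared by Tsr1, a factor of late small subunit assembly, and Srr had medians of 7.67, 7.59, 8.02 and 7.64 in the same order, with a rise of 0.81 from P1 to P4 in AE9a leukaemia and of 0.79 with added miR-126. The set of Mrto4, a large subunit factor, and its pseudogenes had medians of 7.02, 7.07, 6.91 and 7.04. None of these can be assigned to a single gene.

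Where a member had more than 1 probe set of its own, the sets did not read alike. The second set of Ppan gave -0.78 for AE9a P1 against normal control, 0.42 for added miR-126 over passages and 1.06 for P4 against P1 with added miR-126, in the directions of the set used (-1.21, 1.02 and 1.95) and smaller. For P4 against P1 with AE9a alone it gave 1.02, where the set used gave 0.76. The second set of Ddx21 gave 0.73 for added miR-126 over passages, where the set used gave -0.07. Those of Rrs1 and Npm1 gave 0.13 and 0.12 in that comparison, where the sets used gave 0.38 and 0.34. A set shared by Nop56 and the small nucleolar RNA Snord57, which lies within the Nop56 gene, gave 0.72 for added miR-126 over passages, and the set used for Nop56 gave 0.39.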
